A study of Homo sapiens with 14 samples.

Results

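The cyclins, the cyclin-dependent kinases (CDKs) and the CDK inhibitor p21 were followed through total and polysome mRNA of MDA-MB-231 cells with and without silencing of DAP5. The 10 genes were taken as a fixed list from the 58434 gene symbols counted. They are CCND1 and CCND3 (cyclins D1 and D3), CDK4 and CDK6, CCNE1 and CCNE2 (cyclins E1 and E2), CCNA2 (cyclin A2), CDK2, CCNB1 (cyclin B1) and CDKN1A (p21). All 10 were read in all 14 libraries and passed the filter on low counts in every comparison.
MDA-MB-231 is an established human line from a triple-negative, mesenchymal-like breast cancer. All cells carried a doxycycline-inducible shRNA in a lentiviral vector with a red fluorescent reporter, and all received doxycycline at 1 µg/ml for 6 days. In MB-231-shDAP5 cells the shRNA targets DAP5, a translation initiation factor related to eIF4G and encoded by EIF4G2, and in MB-231-shNSi cells it is a non-silencing construct. Each line is a puromycin-selected, sorted population that was sampled as 2 cultures. Each culture gave total mRNA, light (poorly translated) polysome mRNA and heavy (well-translated) polysome mRNA from a sucrose gradient, and each shNSi culture also gave a moderate polysome pool. The comparisons ask whether silencing changes the amount of an mRNA, its amount in polysomes, or its translation efficiency, which is the ratio of polysome to total mRNA within a culture.

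Cyclins are proteins made and destroyed in each division cycle, and each switches on the CDK that it binds. D-type cyclins with CDK4 or CDK6 start the phosphorylation of the retinoblastoma protein RB in G1, cyclin E with CDK2 completes it and opens S phase, cyclin A with CDK2 acts during S phase, and cyclin B with CDK1 drives mitosis. p21 binds cyclin-CDK complexes and holds the cycle, and it is best known as a target of p53, which is mutant in MDA-MB-231. Because cyclins turn over fast, their supply depends closely on continued translation. In bulk RNA, fewer cells in a phase of the cycle and less mRNA per cell cannot be told apart.

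The libraries held 25899838 to 30795910 counts each. The pools were separated by title. The shDAP5 light libraries carried the code used for the shNSi moderate pool, and the titles of the shDAP5 total libraries add the word polysome, so the light comparisons and the comparisons with total mRNA rest on the titles. VIM, CD44, AXL and CAV1, which mark this line, were read in all libraries at 118 CPM (reads of a gene scaled to a common library total) or more. CDH1 had 0 to 8 counts and ESR1 2 to 16, and PGR had 0 counts in each library, which allows up to 0.0974 to 0.116 CPM. CPM values in the text were scaled by TMM within each fraction and are not comparable between fractions, except in the account of the shNSi gradient and the plot of levels, which use 1 TMM scaling over all 14 libraries. The study describes its sets of cultures as performed independently, and p-values measure the spread between these samples, and an exact permutation test of 2 cultures against 2 cannot give a two-sided p below 0.333. The tests are those of edgeR's quasi-likelihood method, in which the spread is estimated across all genes, with Benjamini-Hochberg adjustment and a threshold of 0.05. In heavy polysomes the TMM factors were 0.70 and 0.76 in the shNSi cultures and 0.93 and 1.04 in the shDAP5 cultures, so the values below depend on the scaling where stated.

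EIF4G2 in total mRNA was at 1480 and 1430 CPM in the shNSi cultures and at 572 and 782 CPM in the shDAP5 cultures. Its log2 change was −1.11 (SE 0.18, adjusted p = 0.0172). In light polysomes it was at 1740 and 1760 CPM against 633 and 756 CPM, and in heavy polysomes at 1210 and 1090 CPM against 634 and 638 CPM. Both silenced cultures lay below both controls in each of these fractions, while the adjusted p was 0.430 in light and 0.0691 in heavy polysomes. The adjusted p in total mRNA was 0.0501 with library size without TMM, 0.143 with limma, 0.443 in 1 fit of all 14 libraries and 0.680 without shDAP5 culture 1.

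The sequence around the start codon is shown because the silenced protein is an initiation factor and initiation ends with the ribosome at this codon. For 9 of the 10 genes, 9 bases before and 7 bases after the start codon are given 5′ to 3′ with the ATG in capitals, from the transcript chosen for the gene in the GENCODE v29 annotation of GRCh38. CCNE2 is not shown. The positions are those of the ATG in GRCh38, whereas the submitters' notes name hg19 for the counts.
CCND1 (chr11:69641314-69641316, plus strand): gccccagccATGgaacacc
CCND3 (chr6:41941647-41941649, minus strand): tgcccgagtATGgagctgc
CDK4 (chr12:57751715-57751717, minus strand): gatctgagaATGgctacct
CDK6 (chr7:92833321-92833323, minus strand): ccaggcggcATGgagaagg
CCNE1 (chr19:29812556-29812558, plus strand): agccccatcATGccgaggg
CCNA2 (chr4:121823626-121823628, minus strand): ggagcagtgATGttgggca
CDK2 (chr12:55967009-55967011, plus strand): tggcgcttcATGgagaact
CCNB1 (chr5:69167263-69167265, plus strand): gaggaagccATGgcgctcc
CDKN1A (chr6:36684102-36684104, plus strand): gcaggcgccATGtcagaac
A purine 3 bases before the ATG and a G just after it are the main features of a favoured start context. The purine was present in 8 of the 9, and in 85.1% of 18099 coding transcripts. CDK2 was the exception. The G was present in 6 of the 9 and in 50.8% of all, and both features in 5 of the 9 and in 42.8% of all. CCND1, CCND3, CDK4, CDK6 and CCNB1 have both features. A link between the start context and the place of an mRNA in the gradient was not tested. The coding sequences were short, from 492 nucleotides for CDKN1A to 1299 for CCNB1. The D cyclins and the 3 CDKs were between 876 and 978 nucleotides and cyclins E1, E2, A2 and B1 between 1212 and 1299. CDK6 stood apart by its 3′ untranslated region of 10219 nucleotides, against 531 to 3192 in the other 9.

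In control cells the mRNAs of the cycle differed widely in level. In total mRNA of shNSi cultures, per kilobase of exon, CCNB1 was at 193 ± 21.5 CPM (SD, n = 2), CDK4 at 176 ± 13.7 and CCND1 at 157 ± 14 CPM. The ranges of CCNB1 and CDK4 overlapped, as did those of CDK4 and CCND1. CCNA2 followed at 59.2 ± 4.07 CPM per kilobase, CDK2 at 46.1 ± 5.37, CCND3 at 30.7 ± 1.31, CDKN1A at 20.0 ± 2.65 and CCNE2 at 10.5 ± 1.29, none overlapping its neighbour. CCNE1 (6.10 ± 0.447 CPM per kilobase) and CDK6 (6.02 ± 2.19) were lowest and overlapped each other. Of each pair with a shared role, cyclin D1 was above cyclin D3 and CDK4 above CDK6 in level per kilobase. The order of the 10 genes was the same in shDAP5 total mRNA. It depends on the length used, which is the union of all exons of a gene. For CCND3 this is 5802 nucleotides against 2085 in the chosen transcript, and for CCNA2 2798 against 2797.

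**Figure D1:**
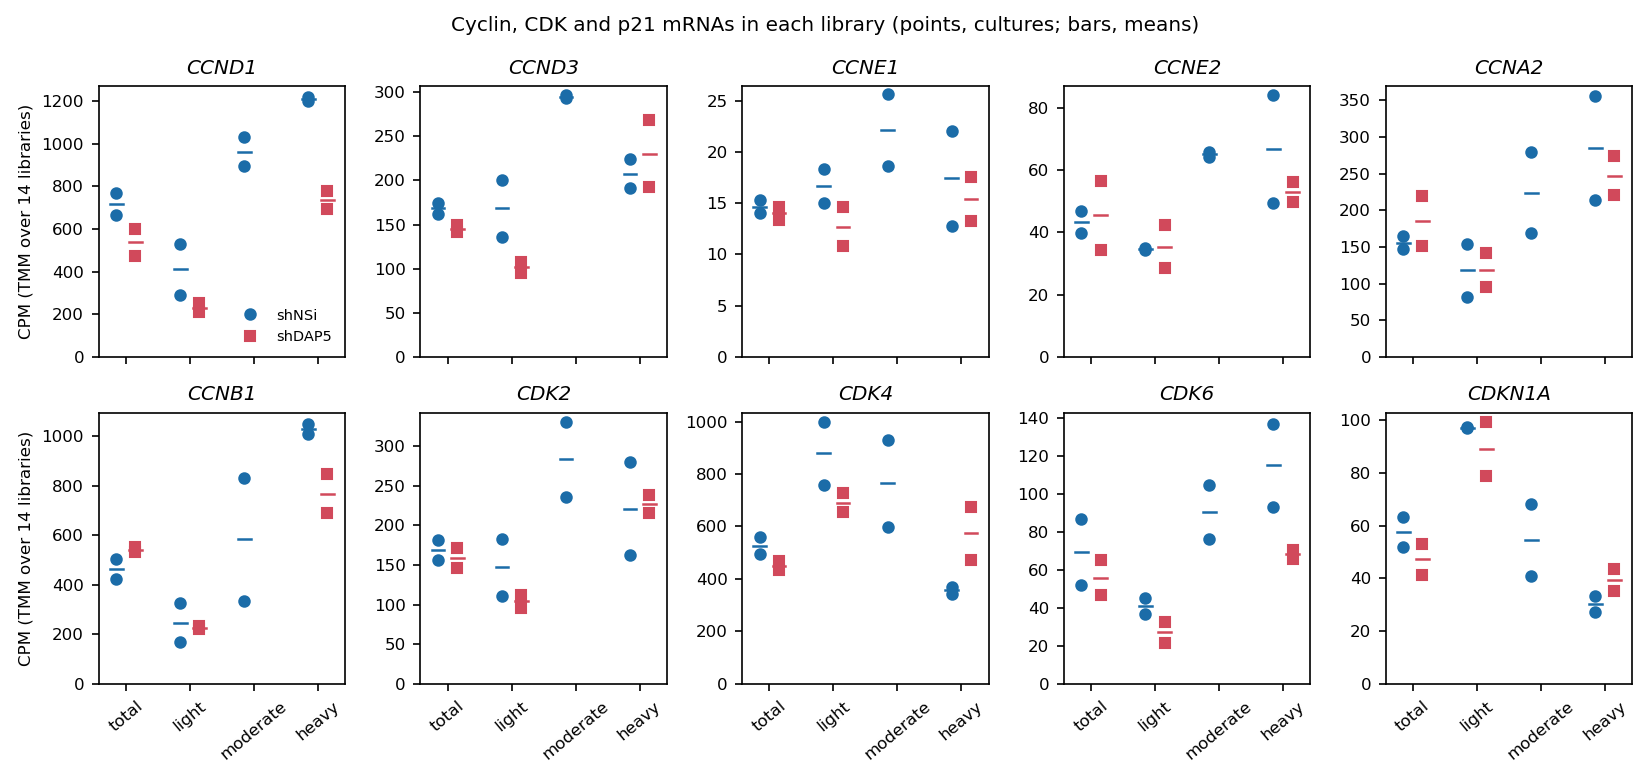
CPM (vertical axes, scaled by TMM over all 14 libraries) of the 10 mRNAs in total mRNA and in light, moderate and heavy polysomes; points are single cultures (circles shNSi, squares shDAP5) and bars are means of 2. CCND1 and CCNB1 are highest in heavy polysomes of shNSi cells, at 1200 to 1220 and 1010 to 1050 CPM, and CDK4 and CDKN1A are higher in light than in heavy polysomes of shNSi cells.

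Along the gradient of control cells the 10 mRNAs separated into 3 groups. CCNB1, CCND1, CDK6, CCNA2 and CCNE2 were higher in heavy than in light polysomes, CDKN1A and CDK4 were lower, and CCND3, CCNE1 and CDK2 did not pass the test. That is 5 higher and 2 lower of 10, where 31.7% of 16051 genes were called higher and 32.8% lower (64.4% in all). The median log2 ratio of heavy to light was 0.60 over the 10 genes and −0.15 over all genes tested.
On the scale common to all 14 libraries, cyclin D1 mRNA was at 1220 and 1200 CPM in shNSi heavy polysomes and at 291 and 531 CPM in light polysomes. Its fitted log2 ratio of heavy to light was 1.49 (SE 0.40, adjusted p = 0.000514). Cyclin D3, which shares its CDK partners, was at 224 and 191 CPM in heavy and 136 and 201 CPM in light polysomes, and the ratio was 0.19 (SE 0.34, adjusted p = 0.629). The heavy and light values of cyclin D1 did not overlap and those of cyclin D3 did, and the difference between the genes was not tested.
The kinases of the D cyclins are CDK4 and CDK6. CDK6 was at 137 and 93.4 CPM in heavy and 45.1 and 37 CPM in light polysomes, a log2 ratio of 1.35 (SE 0.29, adjusted p = 1.72e-05). CDK4 was at 371 and 342 CPM in heavy and 759 and 1000 CPM in light polysomes, a log2 ratio of −1.43 (SE 0.40, adjusted p = 0.000734). Both heavy libraries were above both light libraries for CDK6 and below them for CDK4.
Among the S-phase genes, CCNA2 was at 356 and 214 CPM in heavy and 82 and 154 CPM in light polysomes, with a log2 ratio of 1.23 (SE 0.35, adjusted p = 0.000952). CCNE2 had a ratio of 0.79 (SE 0.29, adjusted p = 0.0118). Both calls rested on shNSi culture 1, without which the ratio was 0.36 for CCNA2 (adjusted p = 0.443) and 0.41 for CCNE2 (adjusted p = 0.389). CDK2 had a ratio of 0.41 (SE 0.34, adjusted p = 0.289), which was 1.18 in culture 1 and −0.28 in culture 2 when taken within each culture, and CCNE1 a ratio of −0.11 (SE 0.29, adjusted p = 0.748). Without shNSi culture 2 the CDK2 ratio was 1.35 and passed the threshold (adjusted p = 0.000838).
CCNB1, which drives entry into mitosis, had the highest ratio of the 10. It was at 1050 and 1010 CPM in heavy and 169 and 325 CPM in light polysomes, a log2 ratio of 2.06 (SE 0.40, adjusted p = 1.14e-06). CDKN1A had the lowest. It was at 27.2 and 33.2 CPM in heavy and 96.8 and 97.2 CPM in light polysomes, a log2 ratio of −1.79 (SE 0.30, adjusted p = 1.20e-08). With offsets for coding length, described below, the order of the 10 was different and CCND1 was highest and CDK4 lowest.
The calls of CCNB1, CCND1, CDK6 and CDK4 held under each alternative run, and that of CDKN1A was lost with the offsets (−0.10, adjusted p = 0.724). With limma on quantile-normalized values CCNE2 (0.41, adjusted p = 0.151) and CCNA2 (0.64, adjusted p = 0.120) did not pass, and with library size without TMM CCNE2 did not (0.34, adjusted p = 0.303), where the median of all genes moved from −0.15 to −0.60.

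**Figure D2:**
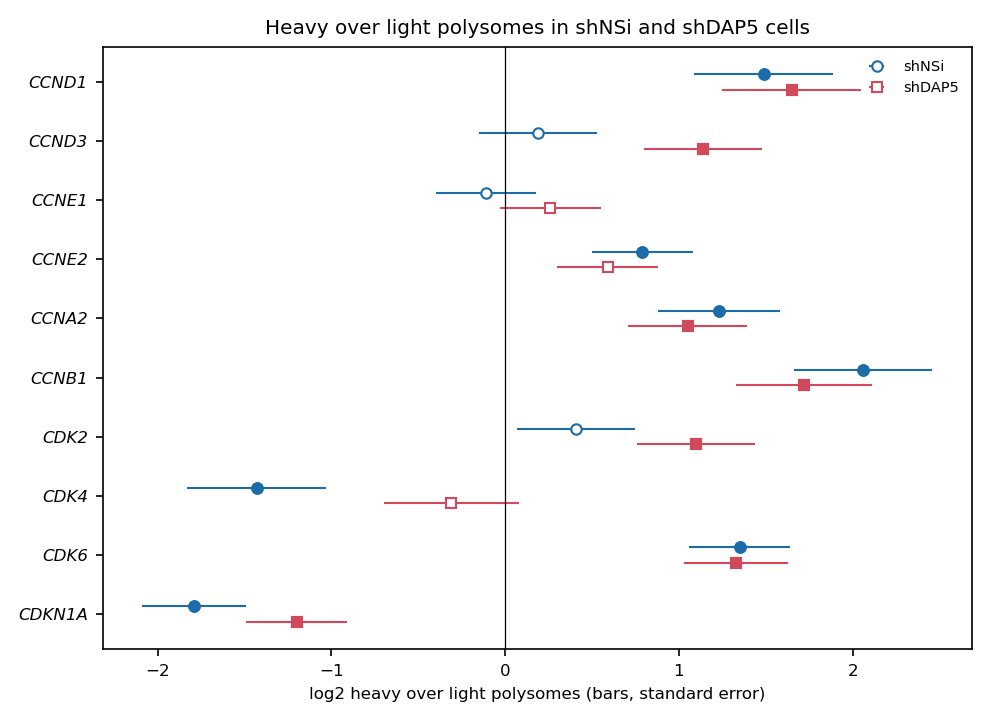
Fitted log2 ratio of heavy to light polysomes (horizontal axis) of the 10 mRNAs in shNSi (circles) and shDAP5 (squares) cells; bars are standard errors of the fit over 2 cultures a line, and filled symbols passed the adjusted threshold. CCNB1 is at 2.06 and 1.72, CDKN1A at −1.79 and −1.20, and CDK4 at −1.43 in shNSi cells and −0.31 in shDAP5 cells.

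In silenced cells 7 of the 10 mRNAs passed the same test, 6 higher and 1 lower in heavy than in light polysomes, where 22% and 22.1% of 16051 genes were called (44.1% in all). Both lines share the fit, and the values are set side by side. CCND1 had a log2 ratio of 1.65 (SE 0.40, adjusted p = 0.000272), CCND3 of 1.14 (SE 0.34, adjusted p = 0.00358), and CDK6 of 1.33 (SE 0.30, adjusted p = 7.08e-05). CCNA2 was at 1.05 (SE 0.34, adjusted p = 0.00692), CDK2 at 1.10 (SE 0.34, adjusted p = 0.00436) and CCNB1 at 1.72 (SE 0.39, adjusted p = 9.94e-05). CDKN1A was the gene that was lower, with a ratio of −1.20 (SE 0.29, adjusted p = 0.000272). Cyclin D3 and CDK2, which did not pass in control cells, passed here, and CDK4 and CCNE2, which passed in control cells, did not.
A call in one line and not in the other does not show a difference between the lines, nor its absence. When the heavy to light ratio was compared between shDAP5 and shNSi cells, edgeR called none of the 10, against 14% of all genes (4.61% higher and 9.41% lower), and 2 had an unadjusted p under 0.05, CCND3 and CDK4 (27.8% of all genes). DESeq2 called none and limma called CDK4 (1.45, adjusted p = 0.0414), where 2.49% of all genes were called higher. The differences ran from −0.33 for CCNB1 to 1.12 for CDK4, whose adjusted p was 0.162. Without shNSi culture 1 the difference passed for CCND3 (1.35, adjusted p = 0.0241) and CDK2 (1.42, adjusted p = 0.0161), where 7.34% of all genes were called higher.
Without shNSi culture 2 CCNE2 passed in silenced cells too (0.63, adjusted p = 0.0434). The calls within silenced cells also rested in part on the fit and on single cultures. With offsets for coding length CDKN1A did not pass (−0.46, adjusted p = 0.0965), and CCNA2 did not with limma (0.78, adjusted p = 0.0822). Without shDAP5 culture 1, CCNA2 (adjusted p = 0.178), CDK2 (0.118) and CDK6 (0.0840) did not pass, and without shDAP5 culture 2, CCNA2 (adjusted p = 0.0903), CCND3 (0.268) and CDK2 (0.102) did not. Of the 7, 4 passed in each case. The remaining culture is then assumed to vary like the other groups.

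Total mRNA of the 10 genes did not pass the test on silencing. edgeR called none of the 10 and 0.354% of 14992 genes, DESeq2 and limma called none of the 10 either, and CCND1 alone had an unadjusted p under 0.05 (12% of all genes). The log2 changes ran from −0.39 to 0.27 with a median of −0.13, against 0.01 for all genes. The silenced and control cultures did not overlap for 4 of the 10, where 42.3% of all genes did not.
Cyclin D1 was at 712 and 807 CPM in shNSi and 513 and 644 CPM in shDAP5 cultures, a log2 change of −0.39 (SE 0.18, adjusted p = 0.384). Both silenced cultures lay below both controls, by less than the test required. CCND3 changed by −0.19 (adjusted p = 0.753), CDK4 by −0.20 (adjusted p = 0.722) and CDK6 by −0.29 (adjusted p = 0.733).
The later cyclins lay on either side of 0. CCNB1 was at 454 and 532 CPM in shNSi and 579 and 592 CPM in shDAP5 cultures, a change of 0.25 (SE 0.17, adjusted p = 0.620) without overlap. CCNA2 was at 157 and 174 CPM against 165 and 234 CPM, a change of 0.27 (SE 0.20, adjusted p = 0.650). CCNE1 changed by −0.04 (adjusted p = 0.969), CCNE2 by 0.09 (adjusted p = 0.937) and CDK2 by −0.07 (adjusted p = 0.935).
CDKN1A was at 55.3 and 66.7 CPM in shNSi and 57.9 and 44.3 CPM in shDAP5 cultures, a change of −0.26 (SE 0.20, adjusted p = 0.692). The groups overlapped.

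In heavy polysomes, where many genes were called, the 10 genes did not pass the test. Over all genes with a coding length the change fell with coding length (rho −0.65). The number of genes called fell with the other shNSi pools as control, as given below. edgeR called none of them and 30.9% of 14270 genes. CDK4 alone had an unadjusted p under 0.05 (42% of all genes), and DESeq2 and limma each called CDK4 and no other, where they called 10.1% and 12.9% of all genes higher. The log2 changes ran from −0.58 to 0.87 with a median of −0.01, against 0.09 over all genes, and the groups did not overlap for 5 of the 10 against 67.3% of all genes.
CDK4 was at 301 and 268 CPM in shNSi heavy polysomes and at 425 and 617 CPM in shDAP5 heavy polysomes. Its log2 change was 0.87 (SE 0.37, adjusted p = 0.0551), just short of the threshold. Of 15 alternatives, it passed in 5, did not pass in 9 and changed sign in 1 (−0.41 with the shNSi moderate pool as control). Of the 5, 1 (replicate numbers crossed) was chosen after seeing the data. It passed with DESeq2 (0.80, adjusted p = 0.0486), library size without TMM (1.10, adjusted p = 0.0264, or 0.76 above the median of all genes), limma (1.16, adjusted p = 0.0105) and at least 10 counts in every library (0.91, adjusted p = 0.0424). CDKN1A was at 22 and 26.1 CPM in shNSi and 39.0 and 32.2 CPM in shDAP5 heavy polysomes, a change of 0.57 (SE 0.33, adjusted p = 0.181).
Cyclin D1 and CDK6 lay on the other side. CCND1 was at 991 and 943 CPM in shNSi and 624 and 711 CPM in shDAP5 heavy polysomes, a change of −0.54 (SE 0.37, adjusted p = 0.273). CDK6 was at 111 and 73.2 CPM against 63.3 and 60.3 CPM, a change of −0.58 (SE 0.33, adjusted p = 0.168). For both, the silenced cultures lay below both controls. CCNB1 also did not overlap, at 847 and 793 CPM against 616 and 775 CPM, with a change of −0.24 (SE 0.37, adjusted p = 0.658). The other 5 lay between −0.15 for CCNE2 (adjusted p = 0.752) and 0.34 for CCND3 (adjusted p = 0.472), with CDK2 at 0.22 (adjusted p = 0.657), CCNA2 at −0.02 (adjusted p = 0.966) and CCNE1 at 0.0026 (adjusted p = 0.996), and their groups overlapped.

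In heavy translation efficiency CDK4 was the 1 gene of the 10 called by edgeR, as higher in silenced cells, where 13.1% of 15374 genes were called and 4.85% called higher. The call held under 5 of 15 alternatives, 1 of which (replicate numbers crossed) was chosen after seeing the data. The sign turned with the shNSi moderate pool as control (−0.20). The median log2 change over the 10 genes was −0.04, against 0.09 over all genes.
CDK4 is the kinase that cyclin D1 activates. Its log2 ratio of heavy to total mRNA was −0.62 and −0.86 in the shNSi cultures and 0.06 and 0.52 in the shDAP5 cultures. Both silenced cultures lay above both controls, and the 0 of this scale depends on the TMM factors. The change was 1.03 (SE 0.36, adjusted p = 0.0480), at percentile 91.1 of all genes. The call stands close to the threshold. It held with DESeq2 (adjusted p = 0.0423), limma (0.0498), at least 10 counts in every library (0.0303) and without shDAP5 culture 1 (1.26). In that last fit the lone silenced culture, the one with the higher ratio, is assumed to vary like the controls. It did not hold with library size without TMM (1.24, or 0.94 above the median of all genes, adjusted p = 0.0628), no filter (0.0657), offsets for coding length (0.66, adjusted p = 0.140), no term for the culture (0.126), or with the shNSi heavy and moderate pools summed as control (0.34, adjusted p = 1.0). Nor did it hold without shNSi culture 1 (1.14, adjusted p = 0.198), without shNSi culture 2 (0.88, adjusted p = 0.626) or without shDAP5 culture 2 (0.80, adjusted p = 0.248).
CDKN1A had the next highest value. Its log2 ratio of heavy to total mRNA was −1.11 and −1.06 in shNSi cultures and −0.35 and −0.24 in shDAP5 cultures, a change of 0.81 (SE 0.33, adjusted p = 0.0931). Both silenced cultures lay above both controls, and the value did not pass the threshold. Without shDAP5 culture 1 it was 0.87 and passed (adjusted p = 0.0434), with the lone silenced culture assumed to vary like the controls. It was 0.02 with offsets for coding length, 0.29 with the summed pools and −0.17 with the moderate pool.
The cyclins lay on both sides of 0 and did not pass. CCNB1 had ratios of 1.08 and 0.85 in shNSi and 0.30 and 0.61 in shDAP5 cultures, a change of −0.51 (SE 0.37, adjusted p = 0.358). CCND1 had ratios of 0.66 and 0.49 against 0.49 and 0.36, a change of −0.15 (SE 0.37, adjusted p = 0.819), and both its heavy polysome and its total values lay lower in the silenced cultures. CCND3 was at 0.25 and −0.03 against 0.31 and 0.91, a change of 0.50 (SE 0.34, adjusted p = 0.334). For CCND1 and CCND3 the values ran in opposite directions, a difference that was not tested. CDK2 changed by 0.34 (adjusted p = 0.538), CDK6 by −0.30 (adjusted p = 0.588), CCNA2 by −0.25 (adjusted p = 0.677), CCNE2 by −0.17 (adjusted p = 0.777) and CCNE1 by 0.07 (adjusted p = 0.914). The groups did not overlap for 6 of the 10 genes, against 59.8% of all genes.

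**Figure D3:**
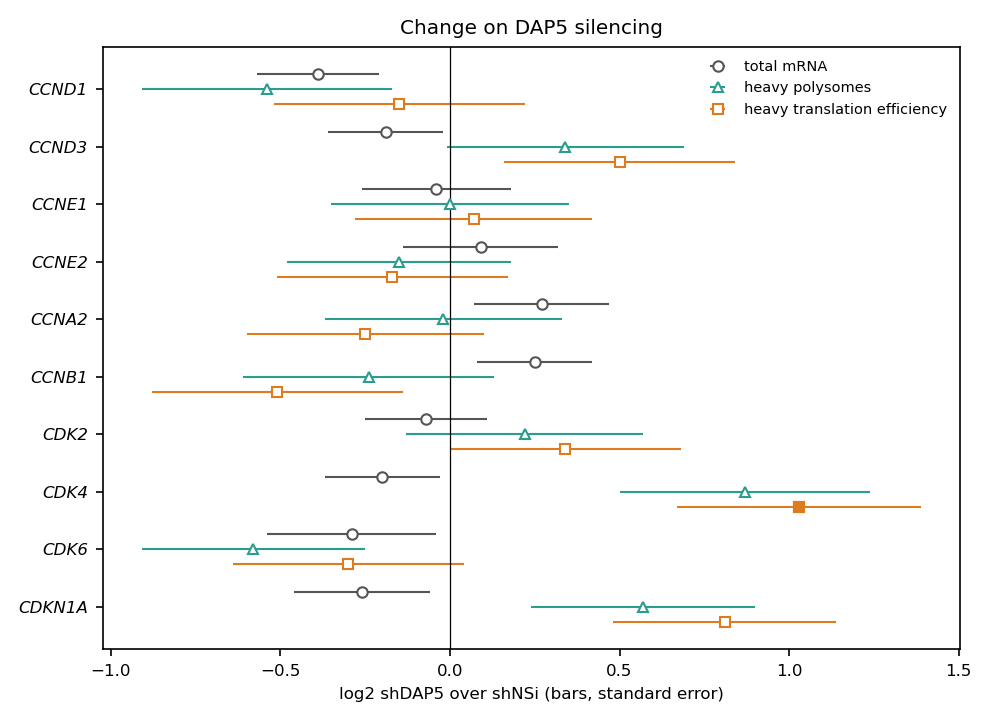
Fitted log2 change of shDAP5 over shNSi (horizontal axis) for the 10 mRNAs in total mRNA (circles), heavy polysomes (triangles) and heavy translation efficiency (squares); bars are standard errors of the fit over 2 cultures a line. The single filled symbol, past the adjusted threshold, is the heavy translation efficiency of CDK4 at 1.03; CCND1 lies below 0 in all 3 measures and CDK4 and CDKN1A lie above 0 in the polysome measures.

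Light polysomes gave no call for the 10 genes. In light polysome mRNA edgeR called none of the 10 and 0 of 15529 genes, and DESeq2 and limma called none of the 10, although DESeq2 called 98 genes in all. At an unadjusted p under 0.05, 2 of the 10 (CCND1 and CCND3) and 1330 genes in all (8.56%) were reached. The log2 changes ran from −0.84 for CCND1 to 0.02 for CCNE2, and 5 of the 10 did not overlap, each of them lower, against 20.2% of all genes lower without overlap. In light translation efficiency, with 15967 genes, edgeR, DESeq2 and limma called no gene, and none of the 10 had an unadjusted p under 0.05 (833 genes in all, 5.22%). The range was −0.49 for CCND3 to 0.15 for CDKN1A.
Single cultures moved this result. Where 1 shNSi culture is left out, the other is assumed to vary like the shDAP5 cultures, whose light libraries were closer to each other (r = 0.993) than those of shNSi (r = 0.973). Without shNSi culture 1, CCND1 (−1.22), CCND3 (−1.01) and CDK2 (−0.84) were called lower in light polysomes (16.3% of all genes were), and the same 3 and CCNB1 (−0.62) in light translation efficiency (7.51%). Without shNSi culture 2, CDK6 (−0.73, adjusted p = 0.0281) was called lower in light polysomes, where 3.05% of all genes were.

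In heavy translation efficiency 7 of the 10 values changed sign with the moderate pool as the control, and 2 with the heavy and moderate pools summed. In shNSi cells CDK4 was higher in moderate than in heavy polysomes by a log2 of 1.46 in culture 1 and 0.87 in culture 2, CDKN1A by 1.42 and 0.36, and CCNB1 was lower by −1.51 and −0.21. No moderate pool was analysed for shDAP5 cells. With the shNSi moderate pool as the control for shDAP5 heavy polysomes, the change in translation efficiency of CDK4 was −0.20 (adjusted p = 1.0), that of CDKN1A −0.17 and that of CCNB1 0.29, and edgeR called none of the 10. With the heavy and moderate counts of each shNSi culture added together it was 0.34 for CDK4 (adjusted p = 1.0), 0.29 for CDKN1A and −0.06 for CCNB1, and again none was called.
The shNSi moderate pool, whose code the shDAP5 light libraries carry, gave many calls when it was the control for these libraries. In light polysome mRNA CCND1 (−2.05), CCND3 (−1.53), CDK2 (−1.44) and CDK6 (−1.73) were then lower, as were 13% of all genes. In light translation efficiency 7 of the 10 were lower and CDKN1A higher (1.04, adjusted p = 0.0341), and 13.8% of all genes were called in each direction. In the comparison of heavy to light ratios, the shNSi moderate pool in place of the shNSi light pool gave 3 calls, CCND3 (1.74), CDK2 (1.58) and CDK6 (1.09), where 10.3% of all genes were called higher, while CDK4 was not called.

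**Figure D4:**
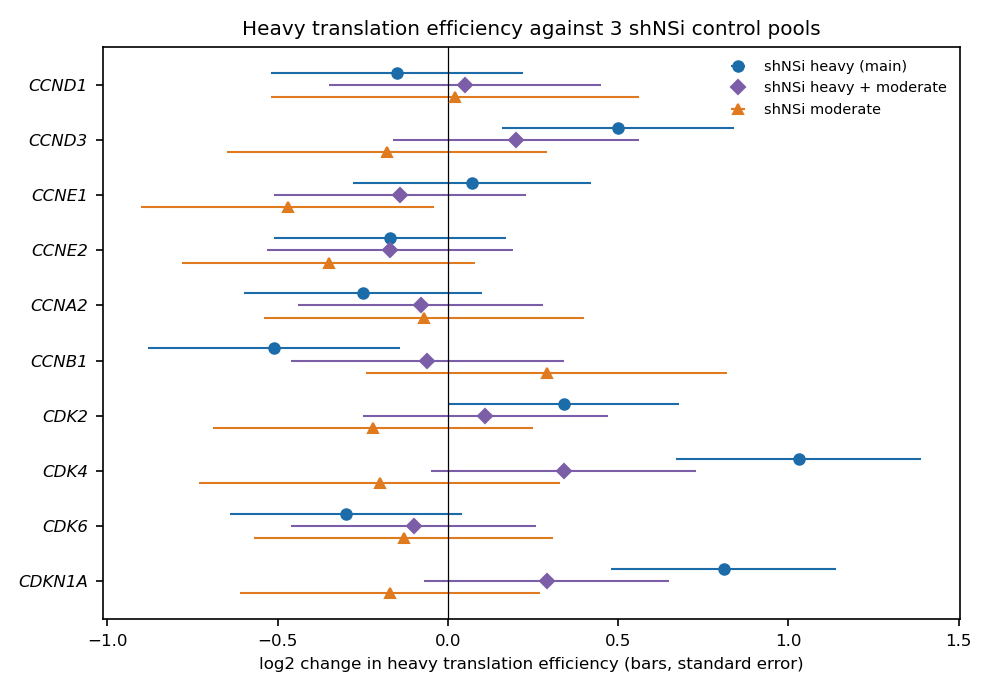
Fitted log2 change in heavy translation efficiency (horizontal axis) of the 10 mRNAs against 3 shNSi control pools, heavy (circles), heavy and moderate summed (diamonds) and moderate (triangles); bars are standard errors of the fit over 2 cultures a line. CDK4 moves from 1.03 to 0.34 and −0.20, and CDKN1A from 0.81 to 0.29 and −0.17.

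The position of an mRNA in the gradient of shNSi cells followed the length of its coding sequence across all genes, and less closely in shDAP5 cells. Spearman's rho between coding length and the heavy to light ratio was 0.64 in shNSi cells and 0.29 in shDAP5 cells. Each value is across 12666 genes, which are not independent replicates. Across 12473 genes rho with the change in heavy translation efficiency was −0.71. The 10 genes can be read against genes of their own length.
CDKN1A has the shortest coding sequence, and its ratio of −1.79 compares with a median of −1.61 over 243 genes of 450 to 500 nucleotides. Its change in heavy translation efficiency of 0.81 equals the median of 0.81 over 237 genes of that length. With offsets for coding length fitted in each library, the ratio was −0.10 (adjusted p = 0.724) and the change 0.02 (adjusted p = 0.982), and neither passed the threshold.
The D cyclins and the 3 CDKs are alike in coding length and were spread over nearly the whole range. Over 1178 genes of 800 to 1000 nucleotides the median heavy to light ratio of shNSi cells was −0.38, with the 10th percentile at −1.51 and the 90th at 0.95. CCND1 (1.49) and CDK6 (1.35) lay above the 90th percentile and CDK4 (−1.43) near the 10th. With the offsets CCND1 was at 2.13 (adjusted p = 1.66e-06), CDK6 at 1.76 (adjusted p = 9.42e-07) and CDK4 at −0.85 (adjusted p = 0.0160), each still past the threshold. CCND3 (0.85, adjusted p = 0.00740) and CDK2 (1.03, adjusted p = 0.00332) then passed as well, where 36.5% of all genes were called higher.
In heavy translation efficiency, the change of CDK4 (1.03) lay above the 90th percentile of 0.87 over 1151 genes of that length, whose median was 0.39, but with the offsets it was 0.66 and did not pass (adjusted p = 0.140). In heavy polysome mRNA with the offsets, CCND1 (−0.97, adjusted p = 0.0371) and CDK6 (−0.89, adjusted p = 0.0414) were called lower on silencing, as were 7.58% of all genes, and CDK4 was at 0.46 (adjusted p = 0.317). CCNB1, at 1299 nucleotides, had a ratio of 2.06 against a median of 0.27 over 599 genes of 1200 to 1300 nucleotides, above their 90th percentile of 1.73.

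**Figure D5:**
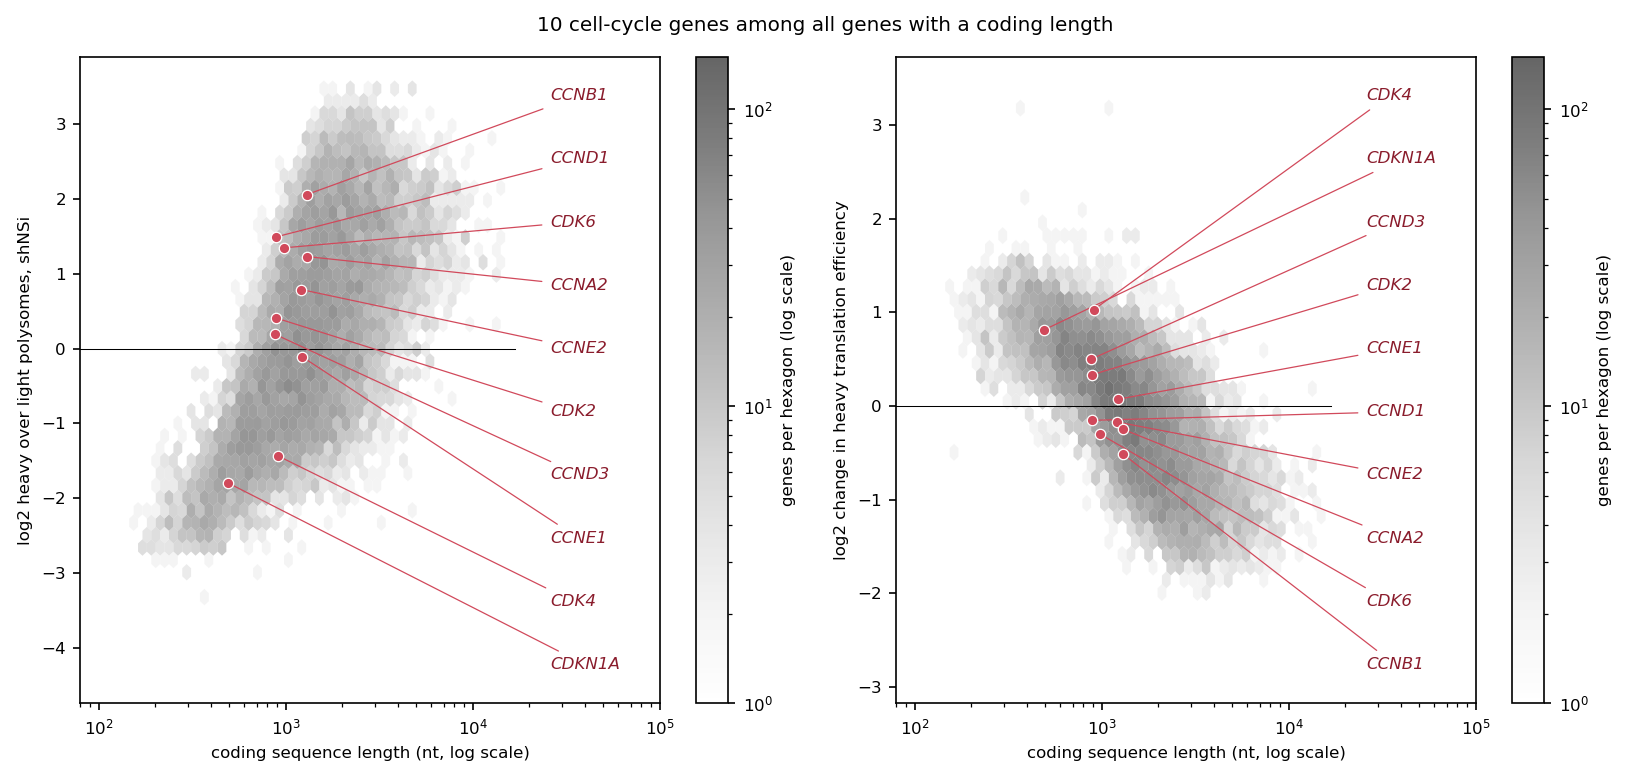
Hexagons count the genes with a coding length (horizontal axes, nucleotides, log scale) by log2 ratio of heavy to light polysomes in shNSi cells (left) and by log2 change in heavy translation efficiency (right); the few genes beyond the axes are not drawn, and labelled points are the 10 mRNAs. CCND1 and CDK6 sit above and CDK4 below most genes of 800 to 1000 nucleotides on the left, and CDKN1A sits amid genes of its length in both.

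Other genes of the cell cycle were counted by list, 65 genes in all of which 63 could be tested. In total mRNA none of the 63 was called by edgeR, and 8 had an unadjusted p under 0.05, where 12% of all genes did. In heavy polysomes 9 of 62 were called higher and 8 lower, where 14.2% and 16.7% of all genes were, and the higher ones included 3 of 4 CDK inhibitors (median 0.93), 2 of 7 CDK regulators and 2 of 18 genes of the p53 list. The number of all genes called in heavy polysomes was 1439 with offsets for coding length and 50 with the moderate pool, against 4414. The 3 inhibitors called have 498, 504 and 948 coding nucleotides, and the median change over all genes of 450 to 500 coding nucleotides was 0.87. In heavy translation efficiency 2 were called higher and 7 lower, with a median of 0.11, where 4.85% and 8.23% of all genes were called.
Of 10 mitotic genes, 5 had a lower heavy translation efficiency (8.23% of all genes did) and 6 were lower in heavy polysomes (16.7% of all genes), with medians of −1.20 and −1.5. Among them were TTK, a spindle checkpoint kinase (−1.74, adjusted p = 0.00570), BUB1B, a checkpoint protein (−1.64, adjusted p = 0.00672), and TOP2A, which untangles DNA (−1.89, adjusted p = 0.00750). Their coding sequences, of 2571, 3150 and 4593 nucleotides, are longer than those of the 10 genes. CCNB1, the cyclin of mitosis, did not pass at −0.51.
Of 10 RB and E2F genes 2 were lower in heavy translation efficiency (8.23% of all genes), RB1 (−1.51, adjusted p = 0.0104), which encodes RB, and its relative RBL1 (−1.39, adjusted p = 0.0110), with a list median of 0.16. Over all genes with a coding length this change fell with coding length (rho −0.71). A link of the RB1 and RBL1 calls to CDK4 was not tested. Of 7 CDK regulators 2 were higher (4.85% of all genes), the small CDK-binding proteins CKS2 (1.35, adjusted p = 0.0104) and CKS1B (0.98, adjusted p = 0.0448), each of 237 coding nucleotides, with a list median of 0.19. The other lists held no call in heavy translation efficiency. Their medians were 0.11 over 8 further cyclins and CDKs, 0.55 over 4 CDK inhibitors, −0.10 over 5 ubiquitin ligase genes and 0.17 over 19 genes of p53 and its targets. At an unadjusted p under 0.05, 2 CDK inhibitors and 2 genes of the p53 list were higher and 1 gene of the p53 list was lower, where 13.5% and 16.2% of all genes were. No gene was called in heavy translation efficiency without TMM, without a culture term, or with the moderate or summed pools as control, so each of these list calls ends there, and with a culture left out 4 to 4515 genes were called. CDKN2A and CDKN2B, whose locus is deleted in this line, had 0 counts in every library.
In the gradient of shNSi cells, of the mitotic genes 9 of 10 were higher in heavy than in light polysomes (median 2.31), of the further cyclins and CDKs 5 of 8 were higher and none lower (median 1.01), and of the CDK inhibitors 2 of 4 were lower and none higher (median −0.83), where 31.7% of all genes were called higher and 32.8% lower. Of 7 CDK regulators 2 were higher and 2 lower, and of 10 RB and E2F genes 4 were higher and 3 lower. Of 5 ubiquitin ligase genes 2 were higher and 0 lower, and of 19 genes of the p53 list 3 were higher and 3 lower. Over all lists 25 of 63 genes were higher and 10 lower. In shDAP5 cells 3 of the 10 mitotic genes were higher in heavy polysomes (median 0.59, 22% of all genes), and in the comparison of heavy to light ratios between the lines 6 of the 10 were lower (median −1.67, 9.41% of all genes). With no replicate block no gene was called in that comparison, and without shDAP5 culture 2 there were 2 in all.

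Over all 14 libraries the members ran in different courses. The root-mean-square difference of the centred log2 CPM was smallest between CCND3 and CDK2 (0.22) and largest between CCNB1 and CDKN1A (1.37). Among 9388 genes with a mean of at least 10 CPM, the 3 with the course most like CCND1 were PEX3 (0.125), PRNP (0.136) and POLDIP3 (0.140), where the median difference over all genes was 0.74. Those nearest to CCNB1 were FAM129B (0.106), TOX4 (0.107) and COPS4 (0.113), those nearest to CDK6 were ARNT2 (0.163), CDYL2 (0.188) and MAP3K20 (0.191), and those nearest to CDKN1A were SMCO4 (0.188), TMEM138 (0.191) and HPCAL1 (0.193). No other of the 10 was among the nearest 3 of these genes.

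Some members share exon sequence with a gene on the opposite strand in GENCODE v29. CDK4 overlaps TSPAN31 over 1369 of its 3168 exon nucleotides, and CCNE2 overlaps INTS8 over 1629 of 4397. CCND1 shares 497 of 4830 nucleotides with LTO1, CDK2 565 of 3894 with the antisense RNA AC025162.1, and CCNA2 254 of 2798 with EXOSC9. The name of the deposited table holds the tag rev, which may stand for counting on the reverse strand, but the sources used here do not state the strand setting. Without strand the reads of such pairs cannot be told apart. In heavy polysomes TSPAN31 was at 7.55 and 7.39 CPM in shNSi and 13.2 and 13.6 CPM in shDAP5 cultures, against 268 CPM or more for CDK4. INTS8 was at 52.9 CPM or more in heavy polysomes, where CCNE2 was at 38.7 to 68.2 CPM, so the values of CCNE2 are uncertain if strand was not used.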

How the data were processed

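The authors deposited counts of reads per gene symbol for 14 libraries of MDA-MB-231 cells in 1 table, from single-read RNA sequencing. Per the labels, reads were aligned with STAR 2.6.0a to hg19, and limma is named for the authors' analysis. The treatment of reads that map to several genes is not given in the sources used here. Of the 58434 symbols, 27761 had no read and 27 had been turned into dates. The depth of 25899838 to 30795910 counts a library bounds the precision, and limits for 0 counts cover counting error only.
Genes passing filterByExpr were tested on the counts with edgeR 4.0.16 in R 4.3.3 (quasi-likelihood, TMM scaling, robust), with Benjamini-Hochberg adjustment over all genes tested and a threshold of 0.05. Single fractions were compared between lines without a block. Translation efficiency was tested as an interaction between fraction and line, with a term for each culture, and the heavy to light ratios came from 1 fit of the 10 polysome libraries with the same terms. Comparisons share libraries.
Alternatives were DESeq2 1.42.0, library size without TMM, limma 3.58.1 on quantile-normalized log2(CPM + 1), other filters, coding length as a spline offset with 5 degrees of freedom in each library, each culture left out, a replicate block, fits with other libraries or without culture terms, and other shNSi pools as control. The crossed replicate numbers, and the moderate pool in place of the light pool in the comparison of heavy to light ratios, were chosen after seeing the data.
The 10 genes and the gene lists were chosen with earlier results of these data known. All 10 were described, and of each list at most the 3 genes with the smallest p past the threshold in heavy translation efficiency or total mRNA were named. CDKN2A and CDKN2B were named besides, for their 0 counts. Gene models came from GENCODE v29 on GRCh38, matched by symbol for 37621 symbols, with a coding length for 18951. CPM per kilobase used the union of exons.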

Additional observations from a re-analysis of the deposited data

Results flagged for a closer look

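The heavy to total ratio of CDK4 mRNA differed between shDAP5 and shNSi cells by the test of the difference itself, the interaction of fraction and line in edgeR. The log2 difference was 1.03 (adjusted p = 0.0480), and both shDAP5 cultures lay above both shNSi cultures. CDK4 was the only call among the 10 genes, where 13.1% of 15374 genes were called and 4.85% called higher. Of 15 alternatives, 5 kept the call, 9 lost it and 1 reversed the sign (−0.20 with the shNSi moderate pool, adjusted p = 1.0). Of the 5, 1 (replicate numbers crossed) was chosen after seeing the data. With offsets for coding length the difference was 0.66 (adjusted p = 0.140).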

How the results depend on the processing

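Of the single values of the 10 genes, 122 of 130 in total mRNA, 110 of 150 in heavy polysomes, 120 of 150 in heavy translation efficiency and 93 of 110 in the shNSi gradient, and for the 7 genes called in the shDAP5 gradient 68 of 77, kept their direction and their side of the threshold over the alternatives. The causes of the changes were not tested.
Genes called changed as follows. Of 53 in total mRNA there were 267 with DESeq2, 18 without TMM, 5 with limma, 577 with no filter, 12 with coding length offsets, 3 with all 14 libraries in 1 fit and 0 to 386 with a culture left out. Of 4414 in heavy polysomes there were 1439 with the offsets, 50 with the moderate pool, 421 with the summed pools and 2 to 3559 with a culture left out. Of 0 in light polysomes there were 98 with DESeq2, 244 with no filter, 4 with the offsets, 1 with all 14 libraries, 3940 with the moderate pool, 114 with the summed pools and 2 to 4678 with a culture left out. Of 2012 in heavy translation efficiency there were 0 without TMM, without a culture term, and with the moderate or summed pools, 408 with limma, 388 with the offsets and 4 to 4515 with a culture left out. Of 0 in light translation efficiency there were 3 with no filter, 4367 with the moderate pool, 454 with the summed pools and 0 to 2030 with a culture left out. Of 10344 in the shNSi gradient there were 6831 with the offsets. Of 7075 in the shDAP5 gradient there were 3254 to 7717 with a culture left out. Of 2251 in the comparison of heavy to light ratios there were 3562 with the moderate pool, 958 with limma, 604 with the offsets and 2 to 2915 with a culture left out. Without TMM the calls in heavy polysomes were 2504 higher and 1139 lower against 2024 and 2390, and those in the shNSi gradient 3776 and 7060 against 5082 and 5262.
Of the 10 genes, heavy polysomes gave 1 call with DESeq2, limma, no TMM and at least 10 counts, 2 with the offsets, 1 with the replicate numbers crossed and 0 otherwise. Heavy translation efficiency gave 0 without TMM, filter or culture term and with the offsets or the moderate or summed pools, and 0 to 2 with a culture left out. Light polysomes gave 4 with the moderate pool and 0 to 3 with a culture left out, and light translation efficiency 8 with the moderate pool, 1 with the summed pools and 0 to 4. The shDAP5 gradient gave 4 to 8, and the comparison of heavy to light ratios 3 with the moderate pool, 1 with limma and 0 to 2.
Same-numbered samples did not deviate together (r of −0.13 in total mRNA, 0.06 in heavy and 0.05 in light polysomes, −0.33 in heavy and 0.02 in light translation efficiency). With the replicate block 365 genes were called in total mRNA, 130 in light polysomes, 688 in heavy translation efficiency (0 of the 10 genes, CDK4 with an adjusted p of 0.176) and 1 in light translation efficiency, and CCNA2 in heavy polysomes was at 0.02. With no replicate block 3763 genes were called in the shDAP5 gradient, where CCNA2 lost its call (1.03, adjusted p = 0.0804), and 0 in the comparison of heavy to light ratios. With the replicate numbers crossed, 4133 genes and 2 of the 10 were called in heavy translation efficiency, 1 of the 10 in heavy polysomes, 99 genes in light polysomes and 4 in light translation efficiency, and CCNA2 in heavy polysomes was again at 0.02.
These values changed sign. In heavy polysomes CCNE1 was −0.06 with DESeq2, −0.18 with all 14 libraries, −0.07 with no filter and −0.06 with the offsets, which also gave CCND3 −0.11, CDK2 −0.19 and CDKN1A −0.32, and CCNA2 was 0.02 with at least 10 counts. Without TMM CCNE2 was 0.07 and CCNA2 0.20, and with limma CCNA2 0.34 and CCNB1 0.07. In heavy translation efficiency CDK2 was −0.05 with the offsets, CCND1 0.06 and CCNE2 0.04 without TMM, and CCND1 0.07 and CCNA2 0.03 with limma. In total mRNA CDK2 was 0.00083 with limma. In the shNSi gradient CCND3 was −0.25 and CDK2 −0.04 without TMM, CCND3 −0.31 and CDK2 −0.06 with limma, and CCNE1 0.03 with no filter. With the summed pools in heavy polysomes CCND3 was −0.07, CCNE1 −0.30, CCNA2 0.08, CCNB1 0.08, CDK2 −0.09 and CDKN1A −0.09, and in translation efficiency CCND1 0.05 and CCNE1 −0.14. With the moderate pool in heavy polysomes CCND3 was −0.35, CCNE1 −0.52, CCNA2 0.16, CCNB1 0.41, CDK2 −0.31, CDK4 −0.41 and CDKN1A −0.46, and in translation efficiency CCND1 0.02, CCND3 −0.18, CCNE1 −0.47, CCNB1 0.29, CDK2 −0.22, CDK4 −0.20 and CDKN1A −0.17.
With a culture left out, the values that changed sign ranged in total mRNA from −0.12 to 0.0037 (CCNE1), −0.32 to 0.40 (CCNE2), −0.02 to 0.50 (CCNA2), −0.20 to 0.03 (CDK2) and −0.63 to 0.11 (CDK6). In heavy polysomes they ranged from −0.37 to 0.36 (CCNE1), −0.52 to 0.19 (CCNE2), −0.38 to 0.30 (CCNA2) and −0.15 to 0.58 (CDK2). In heavy translation efficiency the ranges were −0.25 to 0.37 (CCNE1), −0.44 to 0.07 (CCNE2) and −0.69 to 0.17 (CCNA2), and in the shNSi gradient −0.19 to 0.74 (CCND3), −0.63 to 0.58 (CCNE1) and −0.30 to 1.35 (CDK2).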
